A study of Mus musculus with 12 samples.

Results

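Sgk1 was examined with 7 further genes that are linked to glucocorticoid hormones or to the FoxO transcription factors, Sgk3, Ddit4, Per2, Sesn1, Foxo3, Arid5b and Hsd11b1, in sorted mouse oligodendrocytes. The 8 genes were picked by symbol because Sgk1 was known from these data to differ widely between replicates, and the question was whether the others share that spread apart from any difference between genotypes. They were 8 of the 2398 genes in the table analysed, and all 8 were among the 1484 genes that passed the filter on low counts. The spread of Sgk1 itself is therefore a description and is not tested.

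The cells came from brains of C57BL/6 mice, aged 60 postnatal days in one label and 8 weeks in another, and were sorted for the Ndrg1-EGFP reporter of myelinating oligodendrocytes and against staining by propidium iodide, which marks dead cells. Every mouse carried that reporter and floxed alleles of Lmna, the gene of lamins A and C. The WT group (Cnp+/+;Lmna fl/fl) had intact Cnp, and the KO group (CnpCre/+;Lmna fl/fl) had Cre recombinase in 1 allele of Cnp, a gene of the oligodendrocyte lineage, so the genotypes also differ in Cre and in Cnp dose. Each genotype had 3 biological replicates, with 2 libraries of each replicate summed here into 1 sample. The genes analysed lie on chromosomes 1 and 10, so Lmna and Cnp are not analysed here and the recombination of Lmna was not checked.

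Corticosterone, the main glucocorticoid of mice, binds the glucocorticoid receptor, which then binds DNA at paired short sites and switches on target genes. Sgk1 is a classic target of the receptor, and its product, serum and glucocorticoid regulated kinase, acts downstream of PI3K beside AKT. AKT and SGK kinases phosphorylate FoxO factors, which then leave the nucleus, so FoxO target genes are held low while these kinases are active. NDRG1, whose gene drives the reporter used to sort the cells, is a known substrate of SGK1.

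The Sgk1 gene spans chr10:21882184-21999903 in mm10, and RefSeq promoter windows for GRCm38.p6, the assembly also called mm10, were present for 6 of its start sites. The 250 bases upstream of each start were searched on both strands for the full glucocorticoid response element, AGAACA and TGTTCT with any 3 bases between them, for its core ACANNNTGT, which lies inside the full element, for the receptor half-site AGAACA, and for the FoxO core TGTTTAC. The windows below are shown because the first holds the full element, the second belongs to the Sgk1 start farthest downstream, and the third is the only window of the 8 genes with the FoxO core. Capitals mark the full element in the first window and the FoxO core in the third, and the second window holds no capitals. The windows are chr10:21993640-21993889 (plus strand), chr10:21994416-21994665 (plus strand) and chr1:193242361-193242610 (minus strand).
Sgk1, start with the full element: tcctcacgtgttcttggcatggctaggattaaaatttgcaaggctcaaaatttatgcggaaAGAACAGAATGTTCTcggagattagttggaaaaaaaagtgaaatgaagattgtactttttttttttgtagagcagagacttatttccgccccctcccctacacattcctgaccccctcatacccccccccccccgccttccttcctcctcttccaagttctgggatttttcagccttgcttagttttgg
Sgk1, start farthest downstream: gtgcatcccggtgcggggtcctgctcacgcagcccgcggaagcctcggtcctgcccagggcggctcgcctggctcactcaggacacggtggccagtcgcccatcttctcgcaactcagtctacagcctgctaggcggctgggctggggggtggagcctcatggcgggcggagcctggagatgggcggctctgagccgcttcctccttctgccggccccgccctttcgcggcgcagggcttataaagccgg
Hsd11b1: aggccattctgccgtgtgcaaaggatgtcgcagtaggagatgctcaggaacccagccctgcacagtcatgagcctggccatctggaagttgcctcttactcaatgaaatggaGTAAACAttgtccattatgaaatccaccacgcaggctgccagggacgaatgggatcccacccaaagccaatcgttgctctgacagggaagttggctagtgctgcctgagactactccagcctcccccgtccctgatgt

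The full element of Sgk1 reads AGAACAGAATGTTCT and begins 189 bases before its start site. It was present in 3 of 32851 promoter windows of all genes, or 0.00913%. Another Sgk1 window held the core alone, ACAGTTTGT, a pattern found in 5.84% of all windows. The Hsd11b1 match to the FoxO core, GTAAACA on the strand shown, began 138 bases before the start, and 3.17% of all windows hold that core. The half-site was present in 16.1% of all windows and in 3 of the Sgk1 windows, 1 of which is the window with the full element. Windows were also present for Ddit4, Sesn1, Foxo3 and Arid5b, and these letters are not in them, which says nothing about binding elsewhere. Sgk3 and Per2 were not matched in the promoter table. A match describes the sequence, and binding was not measured.

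Counts in the table analysed ranged from 3694551 to 6093336 per replicate. The 2 libraries of each replicate agreed within sampling noise (chi-square over its degrees of freedom, 1.00 to 1.06). The markers of mature oligodendrocytes on these chromosomes, Adamts4, Nfasc, Csrp1 and Tmeff2, summed to between 50279 and 61100 CPM (counts scaled to 1000000 per replicate over the analysed genes, with TMM factors). By genotype that sum spanned 50279 to 57321 CPM (WT) and 56292 to 61100 CPM (KO). The progenitor markers Tnr and Neu4 summed to between 0.497 and 95.6 CPM. In bulk counts, fewer cells of a type and less RNA per cell cannot be told apart.

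Sgk1 was the most abundant of the 8 genes, and its level varied widely within each genotype. In WT it stood at 10429, 46207 and 30353 CPM in replicates 1, 2 and 3, and in KO at 45887, 13199 and 17093 CPM. WT replicate 2 and KO replicate 1 were the highest and WT replicate 1 the lowest, 4.43-fold below the highest, so the genotypes overlapped. The means were 28996 ± 17927 CPM (SD, n = 3) in WT and 25393 ± 17855 CPM (SD, n = 3) in KO. Sgk1 made up 1.06% to 4.48% of the counts of the analysed genes, depending on the replicate. These genes lie on chromosomes 1 and 10, so its share of all reads is smaller and was not measured. Sgk1 was the most abundant of the analysed genes in WT replicates 2 and 3 and KO replicate 1. The 2 libraries of a replicate gave Sgk1 levels within 1.01-fold of each other, so the spread lies between replicates and not between libraries of 1 replicate. Whether replicates were single or pooled animals is not stated, and p-values measure the spread between these samples.

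**Figure D1:**
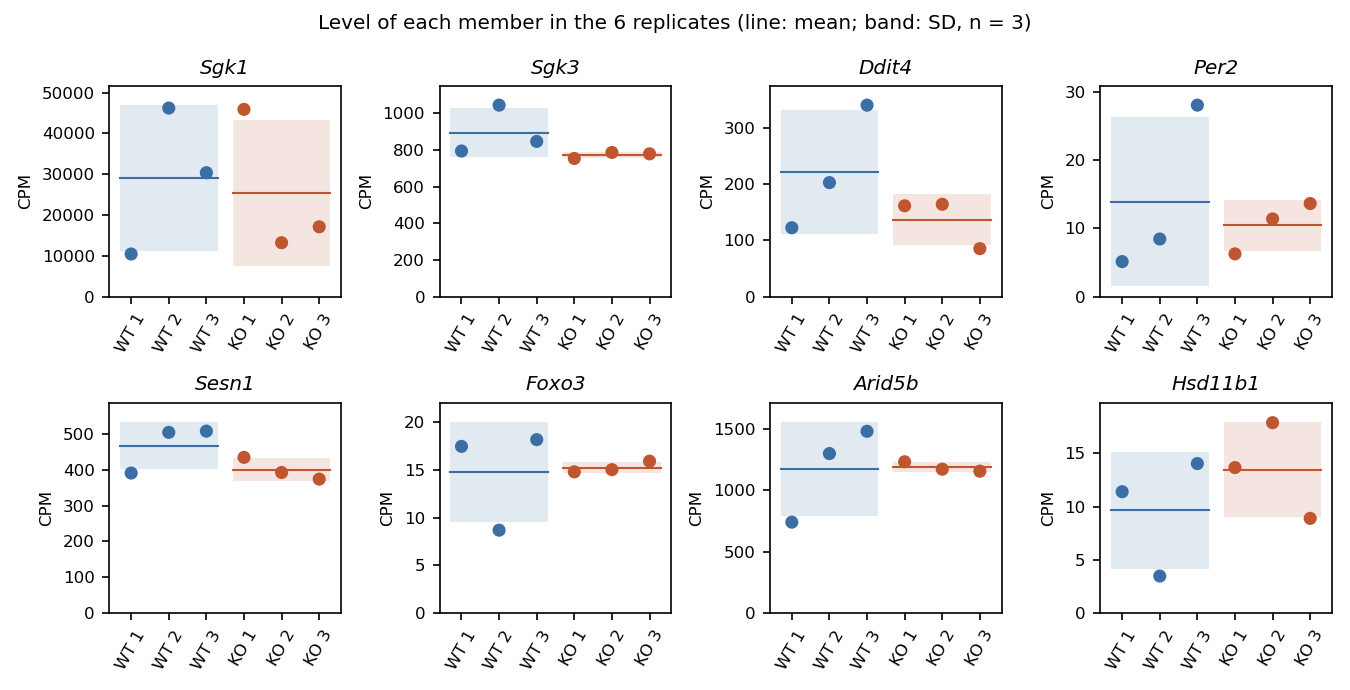
CPM of the 8 genes in each replicate (points; blue WT, orange KO; axes start at 0), with the mean (line) and SD (band, n = 3) of each genotype. Sgk1 spans 10429 to 46207 CPM within WT, while Sgk3 and Sesn1 vary by less than 1.4-fold over all 6 replicates.

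The spread was expressed as the SD of log2(CPM + 1) about the genotype mean over the 6 replicates. For Sgk1 it was 1.03 log2 units, against a median of 0.25 over the 1484 genes tested. Among the 229 genes with a mean of at least 1000 CPM, Sgk1 had the widest spread, followed by Hcn2, a pacemaker channel gene, at 0.81 and Nudt4, a diphosphoinositol phosphatase gene, at 0.52, where the median was 0.15. Many genes of low level had a spread as wide, and Sgk1 stood at the 91.1th percentile of all genes tested. The other members ranged from 0.15 for Sgk3 and 0.17 for Sesn1, below the median of all genes, through 0.38 for Arid5b and 0.39 for Foxo3, to 0.64 for Ddit4, 0.74 for Hsd11b1 and 0.90 for Per2.

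**Figure D2:**
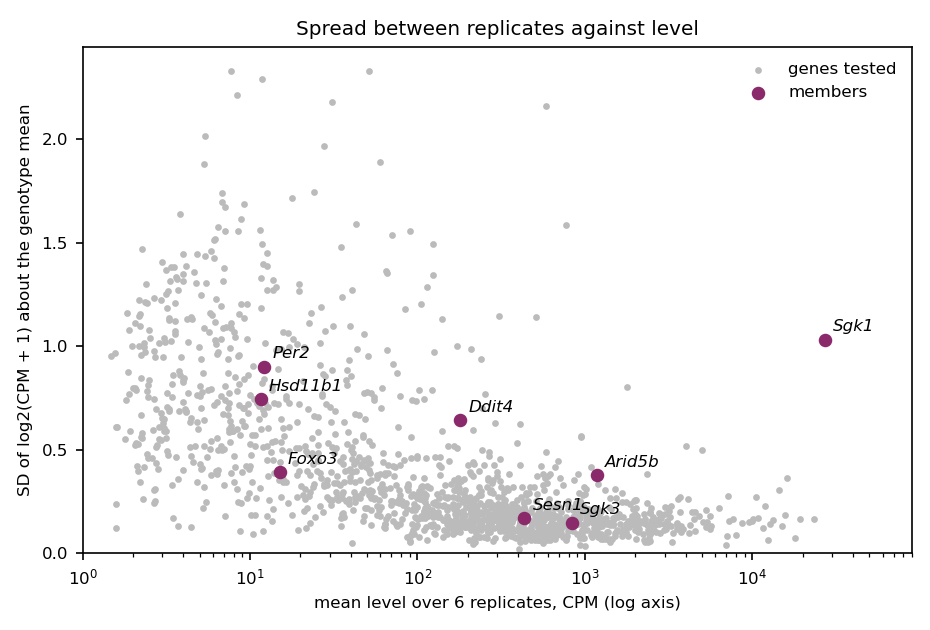
SD of log2(CPM + 1) about the genotype mean against the mean CPM (log axis) for the 1484 genes tested (grey) and the 8 members (purple). Sgk1 stands at 1.03 among abundant genes whose spread is mostly near 0.15, and Per2 and Hsd11b1 lie among genes of low level.

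Sgk3 encodes the sister kinase of Sgk1, which is recruited to endosomes. It stood at 795, 1046 and 847 CPM in WT and at 754, 787 and 780 CPM in KO. Its KO replicates lay within 1.04-fold of each other and all below the WT replicates, by a margin of 795 against 787 CPM. That margin lies within counting error, as the exact Poisson intervals (95%) were 771 to 819 CPM in WT replicate 1 and 765 to 809 CPM in KO replicate 2. In the second library alone, KO replicate 2 stood at 801 CPM, above WT replicate 1 at 792 CPM. Sgk3 was the only 1 of the 8 members whose genotypes did not overlap, where 8.49% of all genes tested did not overlap. Per kilobase of annotated exon (GENCODE M21), Sgk1 had a mean level of 5547 CPM and Sgk3 of 58.3 CPM. Sgk3 lies on chromosome 1 from 9798130 to 9902570.

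Arid5b encodes a DNA-binding partner of a histone demethylase and is induced by glucocorticoids in several cell types. It stood at 740.3, 1299 and 1480.2 CPM in WT and at 1232, 1172 and 1155 CPM in KO. Its WT replicates therefore spanned 2.00-fold and its KO replicates 1.07-fold, with WT replicate 1, the replicate of lowest Sgk1, also lowest in Arid5b. Without WT replicate 1 the spread of Arid5b was 0.087 log2 units in place of 0.38. Arid5b lies on chromosome 10 from 68092523 to 68279355.

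Per2 encodes a core repressor of the circadian clock and has a known response to glucocorticoids. It stood at 5.13, 8.44 and 28.1 CPM in WT and at 6.26, 11.4 and 13.7 CPM in KO. WT replicate 3 stood apart with 156 counts and an exact Poisson interval (95%, counting error only) of 23.8 to 32.9 CPM, above the interval of every other replicate. The next highest, KO replicate 3, had 66 counts and an interval of 10.6 to 17.4 CPM. The replicates with the most Sgk1, WT replicate 2 and KO replicate 1, were thus among the 3 lowest in Per2. No label gives the hour at which the animals were killed.

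Hsd11b1 encodes the enzyme that regenerates active glucocorticoid from its inert form inside cells. It stood at 11.4, 3.48 and 14.0 CPM in WT and at 13.7, 17.9 and 8.89 CPM in KO. WT replicate 2, the replicate of highest Sgk1, had the lowest level, 14 counts with an exact Poisson interval of 1.90 to 5.83 CPM. Its KO replicates overlapped the WT replicates. Hsd11b1 spans 193221640 to 193264045 and Per2 spans 91415977 to 91459351.

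Ddit4 encodes REDD1, an inhibitor of the growth kinase complex mTORC1 that is induced by glucocorticoids, FoxO factors and cell stress. It stood at 122, 203 and 340 CPM in WT and at 161, 164 and 85.2 CPM in KO. WT replicate 3 was highest and KO replicate 3 lowest, 3.99-fold apart, while the replicates of highest Sgk1 stood at 203 and 161 CPM. The genotypes overlapped. Ddit4 lies on chromosome 10 from 59949675 to 59951770.

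Sesn1 encodes sestrin 1, a stress protein and known target of p53 and FoxO factors that restrains mTORC1. It stood at 391, 505 and 508 CPM in WT and at 435, 392 and 374 CPM in KO. The 3 replicates of highest Sgk1 were also the 3 of highest Sesn1, within a total range of 1.36-fold. Sesn1 lies on chromosome 10 from 41810574 to 41908436.

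Foxo3 encodes the FoxO factor itself, which is controlled mainly through phosphorylation of the protein, which RNA counts do not show. It stood at 17.5, 8.69 and 18.2 CPM in WT and at 14.8, 15.0 and 15.9 CPM in KO. WT replicate 2 was the lowest, with 35 counts and an exact Poisson interval of 6.05 to 12.1 CPM, which overlaps that of KO replicate 1, from 11.1 to 19.4 CPM. Without WT replicate 2 the spread of Foxo3 was 0.061 log2 units in place of 0.39. Foxo3 lies on chromosome 10 from 42181845 to 42276695.

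Across the 8 genes, Sgk1 included, the order of the replicates was counted. WT replicate 1 was the lowest WT replicate in 6 of the 8 members, all but Foxo3 and Hsd11b1, where 30.7% of all genes tested had it lowest. WT replicate 3 was the highest of all 6 replicates in 5 of the 8, namely Ddit4, Per2, Sesn1, Foxo3 and Arid5b, against 19.7% of all genes tested. The WT replicates spanned a wider fold range of CPM than the KO replicates in 8 of 8 members. For all genes tested a slightly different measure was counted, the range of log2(CPM + 1), which was wider in WT in 60.4%. These counts were made after the values were seen, and members that vary together do not count separately.

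Whether the 8 genes differ between the genotypes was a second question. None of the 8 members passed edgeR's quasi-likelihood test, with adjusted p of 0.994 for each over the 1484 genes tested. No gene of the table passed at an adjusted p under 0.05 (0 of 1484, or 0%). At the unadjusted level 59 genes (3.98%) had a p under 0.05, none of them a member. DESeq2 called 7 genes (0.472%), none of them a member. Among the 7 was the oligodendrocyte marker Adamts4, higher in KO (log2 fold change 0.52 ± 0.11 (SE), DESeq2 adjusted p = 0.00186, edgeR adjusted p = 0.504). The mature oligodendrocyte markers had edgeR log2 fold changes above 0 in 4 of 4 genes, where 49.5% of all genes tested had. As log2 of KO over WT, the fitted differences were -0.19 ± 0.70 (SE) for Sgk1, -0.21 ± 0.13 for Sgk3 and -0.70 ± 0.41 for Ddit4. For Sgk1 the 95% interval reached from -1.93 to 1.55, so neither a large difference nor a lack of difference was shown, and the sign of the Sgk1 value turned without WT replicate 2 (0.31), KO replicate 2 (0.11) or KO replicate 3 (0.026).

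The remaining members gave -0.22 ± 0.14 for Sesn1 and -0.41 ± 0.70 for Per2, and 0.043 ± 0.45 for Foxo3, 0.016 ± 0.23 for Arid5b and 0.48 ± 0.62 for Hsd11b1. The 95% intervals were narrowest for Sgk3, from -0.50 to 0.073, and Sesn1, from -0.54 to 0.089. Leaving out 1 replicate moved Ddit4 to between -0.99 and -0.24 (without WT replicate 3), Sgk3 to as little as -0.077 (without WT replicate 2) and Hsd11b1 to 0.093 without WT replicate 2, 0.22 without KO replicate 2 or 0.86 without WT replicate 3. The sign turned without WT replicate 3 for Per2 (0.63), without WT replicate 2 for Foxo3 (-0.22) and without WT replicate 1 (-0.23) or KO replicate 1 (-0.015) for Arid5b. The value was below 0 in 5 of 8 members, against 50.5% of all genes tested, and the median over the 8 members was -0.20, and over all genes tested it was -0.0064. For 1 gene taken alone, exact permutation of 3 against 3 replicates has a smallest two-sided p of 0.1.

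To ask whether other genes follow Sgk1 apart from the genotype, each gene was fitted in edgeR on the genotype and on the log2 level of Sgk1 centred within each genotype. The slope is the log2 change of the gene per log2 unit of Sgk1, so a gene that moves by the same fold as Sgk1 has a slope of 1. Of the 1483 genes fitted, 0 passed at an adjusted p under 0.05 (0%), and 92 (6.2%) had an unadjusted p under 0.05, 46 of them with a slope above 0 and 46 below. None of the 7 members fitted was among the 92. Sesn1 had a slope of 0.15 ± 0.065 (SE) and Arid5b of 0.27 ± 0.11, each with an edgeR adjusted p of 0.732. A doubling of Sgk1 thus went with 1.11-fold more Sesn1 and 1.2-fold more Arid5b in the fit. Without WT replicate 1 the slope of Sesn1 was 0.091 and that of Arid5b 0.015, so the slope of Arid5b rested on that replicate.

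The slope was 0.32 ± 0.24 for Ddit4, 0.080 ± 0.070 for Sgk3, 0.091 ± 0.58 for Per2, -0.20 ± 0.27 for Foxo3 and -0.27 ± 0.38 for Hsd11b1. Without WT replicate 1 the slope of Ddit4 was 0.013 and that of Sgk3 0.016, and without WT replicate 2 that of Foxo3 was -0.0019. The slope of Per2 turned negative without WT replicate 1 (-0.78) or WT replicate 3 (-0.026), and that of Hsd11b1 turned positive without WT replicate 2 (0.027). The upper end of the 95% interval was 0.25 for Sgk3, 0.30 for Sesn1, 0.44 for Foxo3, 0.53 for Arid5b, 0.63 for Hsd11b1 and 0.88 for Ddit4. For Per2 the interval reached from -1.28 to 1.46. Sgk1 was chosen for its wide spread and the 7 other members all had a smaller SD, so slopes under 1 follow from that choice and are no finding. Slopes above 0 were found in 5 of the 7 members, against 48.1% of all genes fitted, and the median slope was 0.091 over the members and -0.0065 over all genes.

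**Figure D3:**
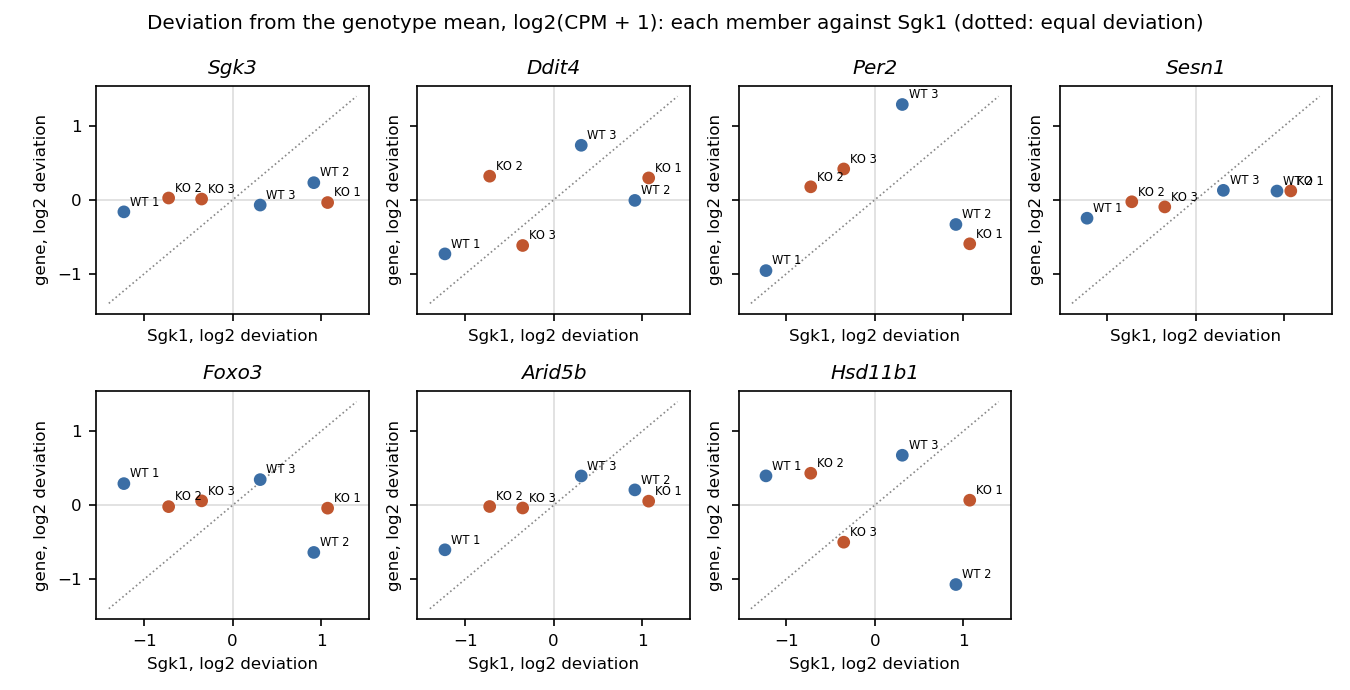
Deviation of each replicate from its genotype mean on the log2(CPM + 1) scale, with Sgk1 on the horizontal axis and the named gene on the vertical axis (blue WT, orange KO; dotted line, equal deviation). Sesn1 and Arid5b are lowest in WT replicate 1, and in Per2 the points of highest Sgk1, WT replicate 2 and KO replicate 1, lie below 0.

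The correlation with Sgk1 over the 6 replicates, on log2(CPM + 1) with genotype means removed, was highest for Sesn1 among the 7 members. Each p comes from an exact two-sided permutation of the replicates within genotypes, which has 36 orders and cannot go below 0.0278, and the Benjamini-Hochberg adjusted values cover all 1483 genes. Sesn1 had a Pearson r of 0.90 (exact p = 0.111, adjusted 0.716) and a Spearman rho of 0.77 (exact p = 0.167, adjusted 0.909). Arid5b had r = 0.73 (exact p = 0.139, adjusted 0.757) and rho = 0.71 (exact p = 0.167, adjusted 0.909). Of all genes compared, 46 had a higher r than Sesn1 and 147 a higher r than Arid5b. WT replicate 1 and KO replicate 1 lay farthest from the median of Sgk1 once the genotype means were removed. Without them, and with the genotype means taken over the 4 kept, r was -0.64 for Sesn1 and -0.90 for Arid5b. The positive values thus rested on those replicates, and the 4 kept hold only 1 difference within each genotype.

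For Ddit4 r was 0.54 (exact p = 0.361, adjusted 0.888) and rho 0.37 (exact p = 0.583, adjusted 0.950), and r was -0.94 without those 2 replicates. For Sgk3 r was 0.54 (exact p = 0.5, adjusted 0.942) and rho 0.31 (exact p = 0.722, adjusted 1.00), and for Per2 r was 0.097 (exact p = 0.917, adjusted 1.00) and rho 0.086 (exact p = 0.972, adjusted 1.00). Foxo3 had r = -0.55 (exact p = 0.5, adjusted 0.942) and rho = -0.54 (exact p = 0.361, adjusted 0.950), and Hsd11b1 had r = -0.43 (exact p = 0.472, adjusted 0.941) and rho = -0.37 (exact p = 0.583, adjusted 0.950). Without those replicates r was 0.83 for Sgk3, -0.77 for Per2, -0.81 for Foxo3 and -0.998 for Hsd11b1. No adjusted value passed.

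Among pairs of the other 7 members, Arid5b and Sesn1 had the highest r, 0.92, and Foxo3 and Hsd11b1, both of low count, had 0.85. Ddit4 had 0.82 with Sesn1 and 0.79 with Arid5b. Foxo3 and Sgk3 had the lowest, -0.94, and WT replicate 2 was lowest in Foxo3 and Hsd11b1 and highest in Sgk3. These values describe 21 pairs of genes over 6 shared replicates and carry no test.

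The genes whose pattern was most like Sgk1, among 959 genes with a mean of at least 50 CPM, were Slc39a10, a zinc transporter, with r = 0.995 over the 6 replicates, Ppil4 (0.991), Ccar1 (0.988), Atp2b1, a plasma membrane calcium pump (0.988), and Tmpo, which encodes the nuclear lamina protein LAP2 (0.986). Their levels moved far less than that of Sgk1, from 1.24-fold between the lowest and highest replicate in Atp2b1 to 1.82-fold in Ccar1. The most opposite were Abhd17a, a depalmitoylating enzyme (-0.988), Nemp2 (-0.975), Cyp20a1 (-0.970), the Wnt receptor Fzd5 (-0.966) and Sh3bp4 (-0.960). Sh3bp4 stood at 97.1, 43.0 and 69.1 CPM in WT and at 47.8, 114 and 87.3 CPM in KO, lowest in WT replicate 2 and KO replicate 1. The smallest adjusted exact permutation p over all genes was 0.542.

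Other glucocorticoid-inducible genes were read from a list of 7, all of them tested, of which 0 passed in either fit. Glul, glutamine synthetase, stood at 12794, 20356 and 12459.8 CPM in WT and at 21743, 14671 and 14759 CPM in KO. Its highest replicates were WT replicate 2 and KO replicate 1, as for Sgk1, but WT replicate 3 was its lowest. Its slope on Sgk1 was 0.29 ± 0.094 (unadjusted p = 0.0181, edgeR adjusted p = 0.61). Rgs2, a regulator of G protein signalling, had a slope of -0.31 ± 0.28 and Ccn2, a matricellular protein gene, of 0.46 ± 0.29. Of the 7 slopes 3 were above 0, against 48.1% of all genes fitted, with a median of -0.31. The list's log2 fold changes, KO over WT, were above 0 in 5 genes, against 49.5% of all genes tested. Their median, 0.64, was the value of 1 gene of low count, Cxcr4 (0.64 ± 1.05). The means of Tnfaip3, Il1r2, Cxcr4 and Il1r1 were 23.1, 7.39, 6.26 and 5.45 CPM, so their fold changes are imprecise. Cxcr4, a chemokine receptor named after its values were seen, had a slope of -1.27 ± 0.49 (unadjusted p = 0.0347, edgeR adjusted p = 0.732). Its counts were low, 67, 2 and 8 in WT and 21, 69 and 29 in KO.

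**Figure D4:**
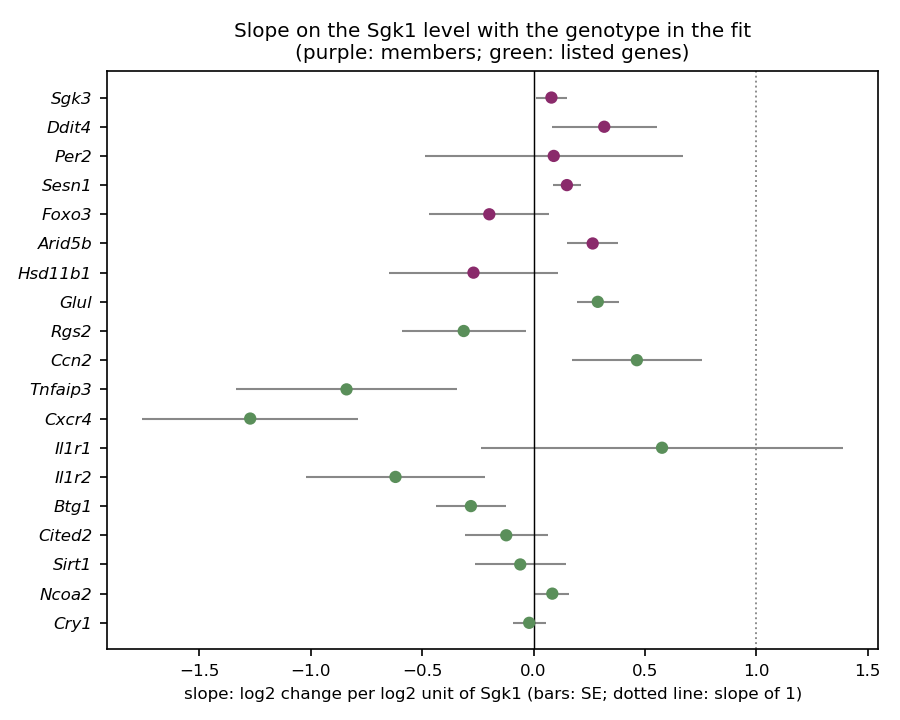
Slope on the Sgk1 level (log2 change per log2 unit of Sgk1, points) with its SE (bars) for 7 members (purple) and 12 genes of the pathway lists (green). Among the members the bars of Sesn1, at 0.15, and Arid5b, at 0.27, lie above 0, as do those of Sgk3 and Ddit4. The dotted line marks a slope of 1.

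Of 4 other FoxO-linked genes, all tested, 0 passed in either fit. Only 1 slope, that of Glul, was above 0, where 48.1% of all genes fitted had slopes above 0. Btg1, an antiproliferative gene, stood at 297, 166 and 357 CPM in WT and at 209, 332 and 249.7 CPM in KO, with a slope of -0.28 ± 0.16. Cited2, a transcriptional coregulator gene, stood at 93.1, 52.2 and 51.1 CPM in WT and at 46.1, 30.2 and 36.6 CPM in KO. Every KO replicate of Cited2 lay below every WT replicate, with a log2 fold change of -0.80 ± 0.32 (unadjusted p = 0.0354, edgeR adjusted p = 0.994), where 4.04% of all genes tested had KO wholly below WT.

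The list of receptor coactivator and clock partners had 3 of 4 genes tested, and 0 passed. Cry1, the clock repressor that pairs with Per2, ranged from 246 to 291 CPM over the 6 replicates, beside the 5.48-fold range of Per2. Ncoa2, a coactivator of the glucocorticoid receptor, ranged from 484 to 648 CPM, and Sirt1, a deacetylase of FoxO proteins, from 31.2 to 68.6 CPM. Their slopes on Sgk1 were -0.019 ± 0.074, 0.084 ± 0.077 and -0.060 ± 0.21. In the list of PI3K, AKT and SGK pathway genes, 0 of 7 passed in either fit. Inpp4a, a phosphatase gene for PI3K products named after its values were seen, stood at 31.5, 30.0 and 32.4 CPM in WT and at 50.7, 48.0 and 50.7 CPM in KO, without overlap (log2 fold change 0.67 ± 0.25, unadjusted p = 0.026, edgeR adjusted p = 0.940). Inpp5d, a related phosphatase gene, did not overlap either, with 8.94 to 13.0 CPM in WT and 13.9 to 15.0 CPM in KO, and 4.45% of all genes tested had KO wholly above WT. Phlpp1, a phosphatase of AKT, had a slope of 0.064 ± 0.089, the lipid kinase gene Pik3c2b of -0.23 ± 0.11 and the phosphatase subunit gene Ppp2r5a of -0.11 ± 0.15.

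Immediate early genes, which respond within minutes to stimuli that include tissue dissociation, form a further list. Egr2, an immediate early transcription factor, stood at 680.4, 78.5 and 1315 CPM in WT and at 49.8, 930.1 and 485 CPM in KO, lowest in the 2 replicates of highest Sgk1. Btg2, another immediate early gene, stood at 684, 129.9 and 1855 CPM in WT and at 241, 1172 and 557 CPM in KO. WT replicate 3 was highest in Egr2, Btg2, Per2 and Ddit4 and had the third highest Sgk1. The slopes on Sgk1 were -1.57 ± 0.94 for Egr2, -0.77 ± 0.74 for Btg2 and 0.28 ± 0.095 for Dusp10, a phosphatase of stress kinases. In this list 0 of 10 genes passed, with 4 slopes above 0, against 48.1% of all genes fitted, and a median of -0.35. Of 3 unfolded protein and integrated stress genes 0 passed. Hsp90b1, a chaperone of the endoplasmic reticulum, had a slope of 0.23 ± 0.071, Ppp1r15b of 0.084 ± 0.068 and Atf3 of -0.84 ± 0.54.

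**Figure D5:**
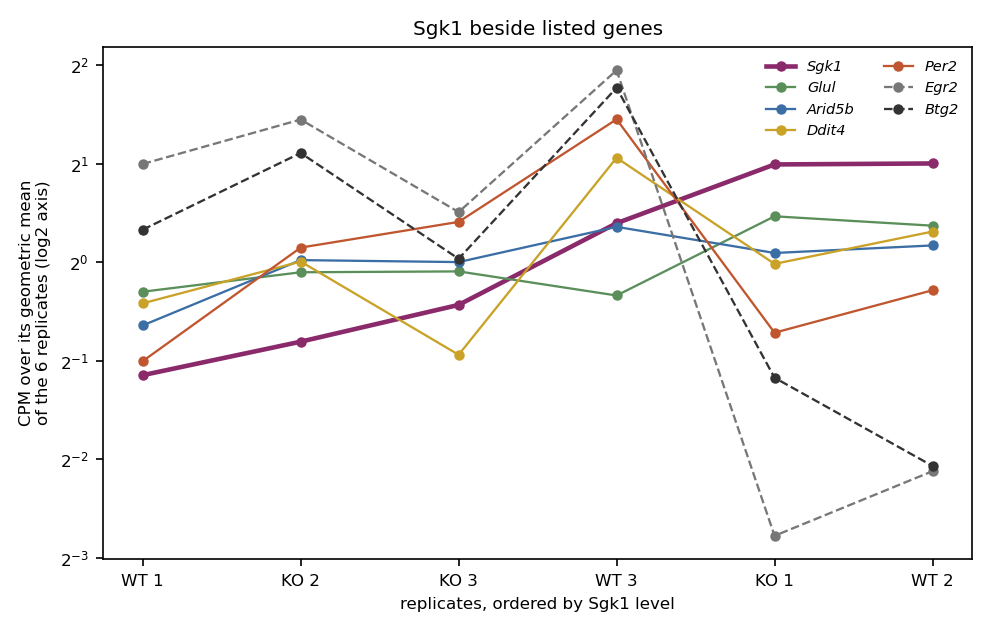
CPM of 7 genes over their geometric mean of the 6 replicates (log2 axis), with the replicates in the order of Sgk1 from lowest to highest. Egr2 and Btg2 (dashed) are lowest in KO replicate 1 and WT replicate 2, where Sgk1 is highest, and Ddit4 and Per2 peak in WT replicate 3.

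Depth and the marker sums were set beside Sgk1 in each replicate, and their part in its spread was not tested. The 2 replicates of highest Sgk1, WT replicate 2 and KO replicate 1, had the fewest counts, 4155727 and 3694551, against 4901307 to 6093336 in the others. The 7 endothelial, mural and fibroblast markers summed to 505 and 678 CPM in those 2 replicates and to between 108 and 389 CPM in the others. Fn1, the marker of highest mean level in this list, stood at 196 and 330 CPM in those 2 replicates and at 38.5 to 103 CPM in the others. Not all of the list followed that order. Col3a1 stood at 100 CPM in WT replicate 2 and 121 CPM in WT replicate 1, and Col5a2 was highest in KO replicate 2, at 44.2 CPM. Their slopes on Sgk1 were -0.046 ± 0.38 and -0.14 ± 0.19, beside 0.61 ± 0.33 for Fn1. Of the 6 markers tested, 4 had slopes on Sgk1 above 0 and 2 below, where 48.1% of all genes fitted had slopes above 0. WT replicate 3, the third in order of Sgk1, had the lowest sum of the 7 markers, 108 CPM, and the second highest total, 5307025 counts. In this list the pericyte marker Rgs5 was at 0 in 3 of the 6 replicates. By genotype this sum spanned 108 to 505 CPM (WT) and 289 to 678 CPM (KO). The progenitor markers Tnr and Neu4 summed to 0.497 and 12.2 CPM in the 2 replicates and to between 35.1 and 95.6 CPM in the others. The 10 microglia and macrophage markers had slopes on Sgk1 below 0 in 10 of 10 genes, where 51.9% of all genes fitted had, and log2 fold changes above 0 in 10 of 10, where 49.5% of all genes tested had. None passed in edgeR, and DESeq2 called 1 of the 10, Lilrb4a, higher in KO (log2 fold change 2.46 ± 0.61, DESeq2 adjusted p = 0.0139). Their sum stood at 363, 247 and 345 CPM in WT and at 382, 788 and 338 CPM in KO, with Slamf9 at 0 in WT replicates 2 and 3. KO replicate 2 was the highest replicate in 10 of the 10 genes. Markers of 1 cell type that vary together do not count separately.

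The 5 astrocyte markers in the table summed to between 2333 and 3661 CPM in WT and between 3107 and 3621 CPM in KO, most of it Kcnj10, which oligodendrocytes also use, and 1 of 5 slopes was above 0. The 5 neuronal markers summed to between 235 and 529 CPM in WT and between 229 and 325 CPM in KO, and Kcnj13 of the choroid plexus ranged from 1.58 to 131 CPM, highest in WT replicate 1.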

How the data were processed

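The data are RNA-seq read counts of sorted oligodendrocytes, 12 libraries, 2 for each of 3 biological replicates of WT and of KO. The deposited table holds whole-number counts for each gene and library, without normalization, and the replicates differ in their totals. The submitters' processing notes name CASAVA 1.8.2, FastQC, fastp, HISAT2, featureCounts, DESeq2 1.38.1, SAMtools 1.4.1 and mm10, without saying which step each served. No source used here states the gene annotation, strand setting or handling of multiply mapped reads. No exon of another gene in GENCODE M21 overlapped the exons of the 8 members. Of 2398 genes, 2226 identifiers matched a RefSeq symbol, and 172 holding 0.552% of the counts did not. One truncated line was dropped. Totals are those of the genes analysed and understate library depth.

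Libraries of a replicate were summed. edgeR 4.0.16 (R 4.3.3) was run with TMM factors, 0.951 to 1.05, filterByExpr and robust quasi-likelihood tests, and p-values were adjusted by Benjamini-Hochberg with a threshold of 0.05. The SE is the size of the log2 value over the root of its F statistic. The common biological coefficient of variation was 0.349. Spread and correlation used log2(CPM + 1), a pseudocount of 1 CPM. The fits were tested on simulated data. Alternatives were RLE factors, no filter, DESeq2 1.42.0, limma-voom (limma 3.58.1), a replicate block, each library alone, library sizes without Sgk1, an uncentred Sgk1 level and leaving out each replicate.

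The members and lists were chosen with earlier results of these data known. The text names the 8 members, the 5 genes most and the 5 least like Sgk1 with a mean of at least 50 CPM, up to 3 genes of highest mean CPM in each pathway list, and any called. Other genes were named after their values were seen.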

Additional observations from a re-analysis of the deposited data

How the results depend on the processing

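Over the alternatives run, 96 of 104 log2 fold changes of the members between KO and WT and 74 of 77 slopes on Sgk1 kept their direction and their side of the threshold. Counts of called genes stayed at 0 except in 2 cases. DESeq2 called 6 genes higher and 1 lower in KO. Leaving out each replicate gave 0 to 1 genes with a called negative slope on Sgk1. The 1 gene, Wdfy1, appeared without KO replicate 3, and the cause was not tested.

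The direction of Sgk1 between genotypes turned without WT replicate 2 (0.31), KO replicate 2 (0.11) or KO replicate 3 (0.026), within a range of -0.94 to 0.31 over the left-out replicates. Per2 ranged from -0.81 to 0.63, positive without WT replicate 3. Foxo3 ranged from -0.22 without WT replicate 2 to 0.23 and was -0.055 in the first library alone. Arid5b ranged from -0.23 without WT replicate 1 to 0.22 and was -0.015 without KO replicate 1. The slope of Per2 ranged from -0.78 without WT replicate 1 to 0.76 and was -0.026 without WT replicate 3. The slope of Hsd11b1 ranged from -0.55 to 0.027, positive without WT replicate 2. Without turning, the slopes ranged from 0.013 to 0.55 for Ddit4, 0.0041 to 0.16 for Sgk3, 0.091 to 0.18 for Sesn1, 0.015 to 0.42 for Arid5b and -0.32 to -0.0019 for Foxo3. The causes were not tested.

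The spread of Sgk1 stayed between 0.81 and 1.17 log2 units whichever replicate was left out. The spread of 6 members moved when 1 WT replicate was left out: Sgk3 to 0.062, Foxo3 to 0.061 and Hsd11b1 to 0.40 without WT replicate 2, Sesn1 to 0.091 and Arid5b to 0.087 without WT replicate 1, and Per2 to 0.51 without WT replicate 3.

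Same-numbered WT and KO replicates had correlations of deviations of 0.0033, -0.33 and 0.15 across genes, so the numbers were not taken to pair them. With a replicate block 0 genes were called higher and 0 lower, 49 had an unadjusted p under 0.05, and the Sgk1 log2 fold change was -0.26. Counts under about 100, as for Per2, Foxo3 and Hsd11b1, limit the precision of those genes.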

Other observations

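Hcn2 and Nudt4, the genes with the widest spread after Sgk1 among those with a mean of at least 1000 CPM, did not order the replicates as Sgk1 did. Hcn2 stood at 3372, 1723 and 1027 CPM in WT and at 1316, 853 and 2393 CPM in KO, and Nudt4 at 5003, 4904 and 2431 CPM in WT and at 4018, 2789 and 5024 CPM in KO. WT replicate 1 was the highest in Hcn2 and the lowest in Sgk1. Their slopes on Sgk1 were -0.36 ± 0.28 for Hcn2 and -0.026 ± 0.19 for Nudt4, with edgeR adjusted p of 0.808 and 0.998. Deviations from the genotype means were also correlated across all genes tested, for each pair of a WT and a KO replicate. The highest value was 0.38, for WT replicate 2 with KO replicate 1, the pair of highest Sgk1. The lowest was -0.37, for WT replicate 3 with KO replicate 1. Deviations sum to 0 within a genotype, so some pairs must come out positive and some negative. The highest pair was picked after the values were seen, and genes are not independent replicates, so no conclusion is drawn.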
